A study of Homo sapiens with 44 samples.

Results

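TBX1, TBX2, TBX3, TBX5 and TBX20 encode the T-box transcription factors best known from heart development, and their RNA was followed here through the differentiation of human embryonic stem cells towards heart muscle. The 5 genes were chosen by name and not by a rule on their values, although earlier results of these data were known. They were found through their Ensembl identifiers among the 60499 genes of the deposited count table. All 5 passed the filter on low counts, which kept 22955 genes.

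The cells were H1 cells, a long-established line of human embryonic stem cells, so every group is a sample of 1 line and none of the values speaks to differences between lines. RNA of 44 wells was sequenced in 12 groups. Pluripotent cells grew on laminin LN-521, and the wells of days 0, 1, 3, 5, 7, 9, 11, 14, 20, 30 and 90 carried LN-521 together with LN-221. Days 5, 7, 9 and 11 have 5 libraries apiece and the remaining groups 3; the series text speaks of 3 wells for day 11, but 5 are labelled and all were used. Day 0 cells were confluent and still in stem cell medium (Nutristem). CHIR99021, which inhibits the kinase GSK3 and so activates Wnt signalling, was given from day 0, and IWP2, which blocks the production of Wnt ligands, from day 3. RPMI with a B27 supplement lacking insulin was used up to day 9, with neither compound at days 7 and 9, and wells from day 11 on had complete B27. The wells are separate samples of one protocol, and nothing in the labels says that they came from separate differentiations, so p-values measure the spread between wells.

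T-box proteins bind DNA through a shared domain and recognise a short element built around the letters GGTGTG. TBX5 and TBX20 act mainly with GATA4 and NKX2-5 to switch on the genes of working atrial and ventricular muscle, although TBX20 can also repress. TBX2 and TBX3 are repressors that compete for the same elements and hold back the chamber programme in the atrioventricular canal and, for TBX3, in the sinus node and the conduction system. TBX1 marks the second heart field and pharyngeal mesoderm that build the outflow tract, and its loss underlies the heart defects of DiGeorge syndrome.

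In GENCODE release 29 (GRCh38, counted from 1) TBX5 (ENSG00000089225) lies on chromosome 12 from 114353931 to 114408442 on the minus strand. TBX3 (ENSG00000135111) is its neighbour on the same strand, from 114670254 to 114684164, with 261811 bases between them. TBX20 (ENSG00000164532) lies on chromosome 7 from 35202430 to 35254147 on the minus strand. TBX2 (ENSG00000121068) lies on chromosome 17 from 61399896 to 61409466 on the plus strand, and TBX1 (ENSG00000184058) on chromosome 22 from 19756703 to 19783593 on the plus strand. In all, 3 neighbours on the opposite strand matter for the counts, because use of the strand in counting is not given in the sources used here. The whole of TBX2, 9571 bases, lies inside TBX2-AS1; TBX5 overlaps TBX5-AS1 by 252 bases; and TBX1 overlaps GNB1L at its far end. TBX3 and TBX20 overlap no other gene that was tested. TBX20 was the only member whose estimated counts carried decimals, in 41 of 44 libraries, so a small part of its reads had been shared with other sequence.

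The promoters of TBX5 and TBX20, the pair tied to chamber muscle, are shown because their RNA followed similar courses while their start regions are unlike. Each run holds 250 bases before and 50 bases after a RefSeq start (GRCh38.p14), read 5′ to 3′ on the gene's own strand, and capitals mark GATA motifs.
TBX5, chr12:114407963-114408262, minus strand: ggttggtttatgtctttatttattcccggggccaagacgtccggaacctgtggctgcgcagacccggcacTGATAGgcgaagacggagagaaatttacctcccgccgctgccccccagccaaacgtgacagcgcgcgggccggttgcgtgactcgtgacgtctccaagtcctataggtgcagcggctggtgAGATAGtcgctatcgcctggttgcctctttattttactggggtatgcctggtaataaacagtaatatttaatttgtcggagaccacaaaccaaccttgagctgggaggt
TBX20, chr7:35254051-35254350, minus strand: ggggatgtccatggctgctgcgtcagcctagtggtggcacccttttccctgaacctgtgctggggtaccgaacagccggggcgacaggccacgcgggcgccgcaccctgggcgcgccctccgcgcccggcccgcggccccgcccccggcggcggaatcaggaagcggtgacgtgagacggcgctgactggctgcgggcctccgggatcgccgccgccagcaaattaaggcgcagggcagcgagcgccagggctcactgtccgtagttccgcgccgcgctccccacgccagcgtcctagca
The TBX20 window has 73.3% G and C and the TBX5 window 54.3%, against a median of 58.7% over all 35116 promoters. Both strands were searched for several short motifs. A GATA match was the word TGATAA, the word TGATAG, the word AGATAA or the word AGATAG. The T-box core was GGTGTG, and a longer T-box element, AGGTGTGA, contains it. An NKX2 motif was read as AAGTGG and a TATA box as TATAAA. The TBX5 window holds TGATAG at position -180 and AGATAG at position -59 from the start, and GATA letters are found in 25.0% of all promoters. The other 4 motifs are not among its letters, and none of the 5 is among those of the TBX20 window. A second TBX5 window, further upstream (chr12:114408393-114408692), also holds none of them. TBX5-AS1 starts 183 bases before the TBX5 start shown and runs the other way, so its window shares most of these letters, both GATA motifs included. In the TBX1 window GGTGTG occurs at position -15, a motif held by 16.8% of promoters.

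Levels below are CPM, counts scaled to a common library total, after TMM scaling by the trimmed mean of log ratios between libraries, and are given as mean ± SD over wells. A gene was called changed when edgeR's quasi-likelihood test gave a Benjamini-Hochberg adjusted p under 0.05 over all 22955 genes and a log2 change of at least 1. Totals ran from 6937136 to 33498022 estimated counts per library, so that 3 counts, taken as the least a library can show, stand for 0.0896 to 0.433 CPM. RNA integrity scores ran from 7.4 to 10.0. In day 11 wells 1 and 2 the summed CPM of 6 endoderm and liver markers (FOXA2, SOX17, HHEX, TTR, AFP and APOA1) was 4525 and 8596, against 170 to 199 in wells 5, 6 and 7. Summed CPM of 6 cardiomyocyte markers (TNNT2, ACTN2, MYH6, TTN, MYL7 and NKX2-5) was 12020 and 6782 in those wells and 21620 to 27650 in the other 3. Both wells were kept, and results that use day 11 are given with and without them. These are bulk samples, in which fewer cells of a type and less RNA per cell cannot be told apart.

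Heart T-box RNA was close to the limit of counting in undifferentiated cells and rose on different days. TBX1 and TBX2 were already above their pluripotent level at day 0, still at few counts. TBX3 lay higher at day 0 too, without a call by edgeR, and rose at day 1, and TBX20 rose at day 3. TBX2 and TBX5 made their largest rise between neighbouring time points at day 5, and TBX1 never passed 8.51 CPM in any well. By day 9 all 5 genes were higher than at day 0. After that the group came apart: TBX3, TBX2 and TBX1 fell, TBX5 gave no call, and TBX20 ended higher at day 90 than at day 9.

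**Figure D1:**
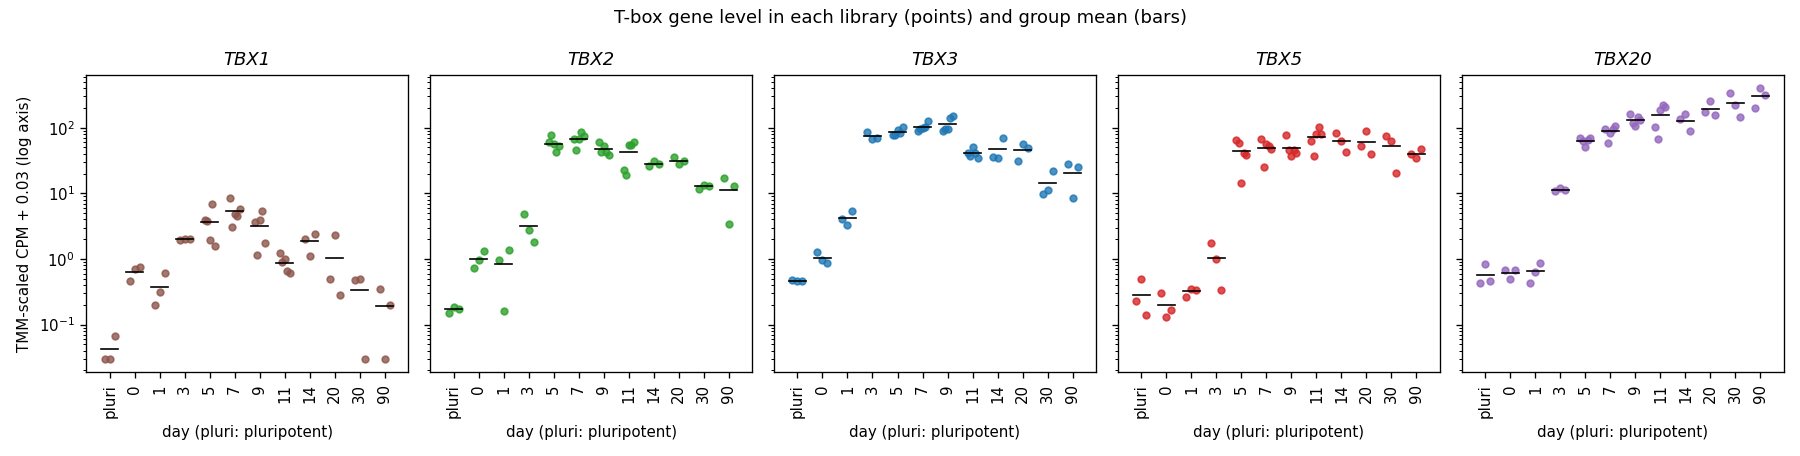
TMM-scaled CPM of each gene (log axis, shifted by a small constant so that zeros can be drawn) against the group, with 1 point per library and a bar at the group mean. TBX3 climbs from day 1 and TBX20 from day 3, TBX2 and TBX5 step up at day 5, and TBX20 alone has its highest mean, 304.3 CPM, at day 90.

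TBX5 and TBX20 had little RNA before day 3. TBX5 gave 5, 15 and 3 estimated counts in the pluripotent libraries. Day 0 libraries held 8, 3 and 4 and day 1 libraries 7, 10 and 10. TBX20 gave 9.88 to 26.98 estimated counts in those 9 libraries. For both genes the 3 groups overlap, and no step between them was called. Set against all other libraries of the same sequencing lane, the TBX5 count of each of these libraries was 0.0357% to 0.239% of what the others held, and that of TBX20 was 0.0455% to 0.129%. Carry-over of reads between libraries of a lane was not tested, so these low values are not read as expression.

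The day 0 step compares confluent cells on both laminins with pluripotent cells on LN-521, and the design does not separate surface, medium and confluence. TBX1 gave 0, 0 and 1 counts in the pluripotent libraries and 13, 20 and 21 at day 0. The level at day 0 was 0.609 ± 0.153 CPM (SD, n = 3), with an adjusted p of 0.0047 by edgeR's quasi-likelihood test. With 54 counts against 1, the ratio was 51.7, and its exact 95% interval of 8.89 to 2078 covers counting error only. TBX2 was 0.121, 0.153 and 0.146 CPM in pluripotent cells and 0.705, 0.932 and 1.31 CPM at day 0, without overlap. Its log2 change of 2.76 (SE 0.70) had an adjusted p of 0.0148 by edgeR, and the call was lost when any 1 pluripotent library or day 0 library 3 was left out (adjusted p 0.055 to 0.0814). TBX3 gave 11 to 14 counts in pluripotent cells and 24 to 37 at day 0, again without overlap (0.429 to 0.442 and 0.829 to 1.24 CPM). Its log2 change of 1.19 (SE 0.43) had an adjusted p of 0.0939 by edgeR. It was called by DESeq2 (1.22, adjusted p 0.0383) and by edgeR fitted to these 6 libraries alone (1.22, adjusted p 0.00621). So 2 of the 5 genes were called, both higher, where 2.73% of all genes tested were called higher and 2.91% in either direction. These counts were 2.40% to 7.42% of the rest of the lane for TBX1, 0.306% to 0.558% for TBX2 and, at day 0, 0.228% to 0.363% for TBX3.

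TBX3 rose at day 1, in cells given the GSK3 inhibitor. It is a repressor that in the embryo is made in the node and in early mesoderm among other sites. Its level was 1.24, 0.932 and 0.829 CPM at day 0 and 3.98, 3.31 and 5.39 CPM at day 1. The wells of the 2 days do not overlap, and the log2 change was 2.07 (SE 0.36, adjusted p 3.54e-05, edgeR). It was the only 1 of the 5 called, where 3.86% of all genes were called higher and 13.5% in either direction. TBX3 then rose to 86.4, 66.8 and 70.4 CPM at day 3, a further log2 change of 4.14 (SE 0.34, adjusted p 7.28e-12, edgeR). At day 3 it held 67.8 ± 1.93% of the summed TPM of the 5 genes (SD, n = 3), TPM being counts scaled for transcript length, the unit in which genes can be set against each other.

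TBX20, needed for growth of the chambers and for the identity of heart muscle cells, stepped up between day 1 and day 3. Its wells read 0.404, 0.611 and 0.841 CPM at day 1 and 10.8, 12.2 and 11.1 CPM at day 3. Every day 3 well was above every day 1 well, with a log2 change of 4.18 (SE 0.40, adjusted p 2.13e-10, edgeR). The other 3 members also passed over this step, from low levels. TBX1 rose by 2.48 on the log2 scale (SE 0.70, adjusted p 0.00653, edgeR) and came to 1.99 ± 0.0341 CPM (SD, n = 3). TBX2 rose by 1.94 (SE 0.50, adjusted p 0.00268, edgeR) to 3.10 ± 1.52 CPM (SD, n = 3). TBX5 read 1.75, 0.968 and 0.302 CPM at day 3, and the lowest of these lies inside the day 1 range of 0.236 to 0.321 CPM. Its log2 change of 1.77 (SE 0.67) had an adjusted p of 0.0441 by edgeR. That call did not hold when scaling was by RLE (adjusted p 0.051), with sequencing lane as a term (adjusted p 0.0511), or without any 1 of the 3 day 1 wells or day 3 well 1 or 2 (adjusted p 0.0806 to 0.311). All 5 genes were thus called higher, where 11% of all genes were called higher and 17.8% in either direction.

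Day 5, 2 days into inhibition of Wnt production, brought the largest change of TBX5 and TBX2. TBX5, whose loss of 1 copy causes Holt-Oram syndrome with its septal and hand defects, stood at 65.9, 59.4, 14.3, 40.5 and 38.5 CPM. All 5 wells were above every day 3 well, although well 3 was far below the others, and the log2 change was 5.44 (SE 0.55, adjusted p 1.89e-09, edgeR). TBX2, the partner of TBX3 in the atrioventricular canal, went from 4.77, 2.72 and 1.81 CPM at day 3 to 60.2, 76.4, 55.8, 42.4 and 52.5 CPM. The groups do not overlap, with a log2 change of 4.21 (SE 0.46, adjusted p 1.07e-08, edgeR). TBX20 rose by 2.48 on the log2 scale (SE 0.32, adjusted p 2.66e-07, edgeR) and reached 63.5 ± 7.30 CPM (SD, n = 5). TBX3 was 86.6 ± 10.7 CPM (SD, n = 5) against 74.5 ± 10.5 CPM (SD, n = 3) at day 3. That log2 difference of 0.22 (SE 0.27) had an adjusted p of 0.647. So 3 of the 5 genes were called, all higher, where 5.75% of all genes were called higher and 10.1% in either direction.

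**Figure D2:**
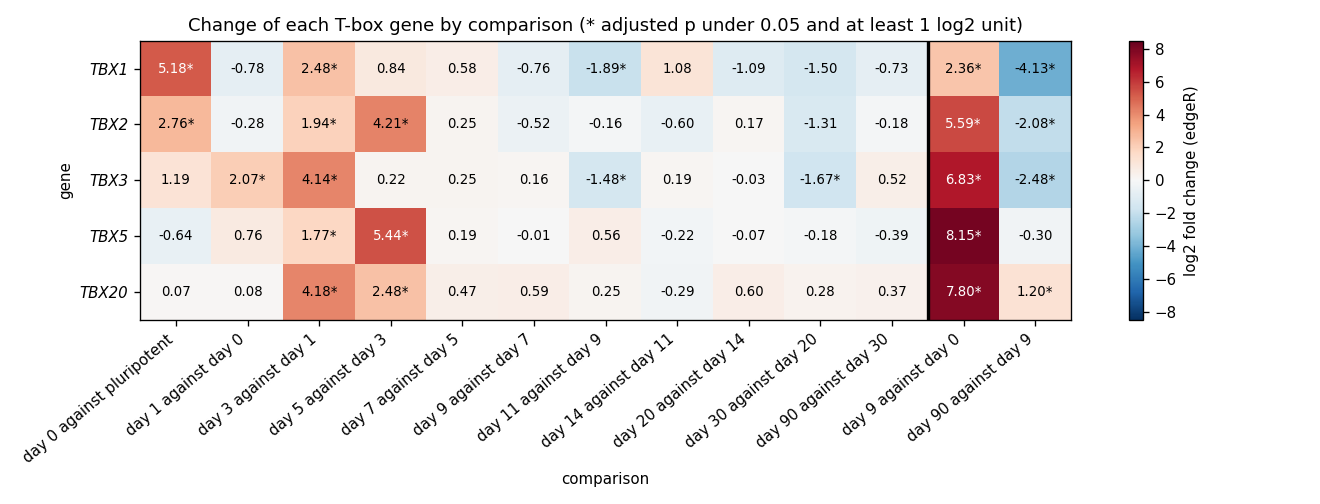
log2 change of each gene (rows) in each comparison (columns), coloured from lower (blue) to higher (red), with a star where the gene was called. Calls sit in the steps up to day 5, then at day 11 and day 30 as falls, and the last 2 columns show 5 rises to day 9 and a split between falls and a rise to day 90.

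Neither step between day 5 and day 9 gave a call. At day 7 against day 5, 0 of the 5 passed by edgeR, where 3.65% of all genes did. None of them had an unadjusted p under 0.05 either, the lowest being 0.0624 for TBX20. DESeq2 likewise called 0. At day 9 against day 7 the count was again 0 by edgeR and by DESeq2, against 1.28% of all genes, and TBX20 was the 1 member with an unadjusted p under 0.05, its adjusted p being 0.281. TBX20 nevertheless went from 51.7 to 69.9 CPM at day 5 to 106.6 to 162.9 CPM at day 9, without overlap, a span that was not tested. Its share of the 5 genes' summed TPM was 39.3% and 53.6% on those days. TBX2 had its highest mean at day 7, 68.4 ± 14.7 CPM (SD, n = 5), and TBX1 its highest at 5.32 ± 2.03 CPM (SD, n = 5) on the same day. TBX3 had its highest at day 9, 114.5 ± 28.8 CPM (SD, n = 5). For each of these 3 genes the wells of days 5, 7 and 9 overlap, so the order of those days is not settled.

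Over the longer span, day 9 against day 0, all 5 genes rose, where 17.1% of all genes were called higher and 31.7% in either direction. The log2 changes were 8.15 for TBX5 (SE 0.67, adjusted p 1.25e-12), 7.80 for TBX20 (SE 0.44, adjusted p 4.55e-17) and 6.83 for TBX3 (SE 0.39, adjusted p 7.3e-17), all by edgeR. They were 5.59 for TBX2 (SE 0.51, adjusted p 1.5e-11) and 2.36 for TBX1 (SE 0.64, adjusted p 0.00242) in the same test. The day 0 values of TBX5 and TBX20 are the low ones described above, so their folds depend on how those counts are read.

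Between day 9 and day 11, when insulin returned to the medium, the repressor TBX3 fell. It stood at 89.6, 94.7, 96.7, 141.6 and 150.0 CPM at day 9 and at 41.6, 37.5, 50.3, 41.7 and 34.2 CPM at day 11. No day 11 well reached the lowest day 9 well, and the log2 change was -1.48 (SE 0.24, adjusted p 0.000179, edgeR). Without day 11 wells 1 and 2 it was -1.45 (adjusted p 0.00165), so the fall is as large in the 3 wells with few endoderm markers. Day 9 wells also differed in those markers, from 557 to 6147 summed CPM. TBX1 fell as well, from 3.14 ± 1.74 to 0.847 ± 0.250 CPM (SD, n = 5 each). Its log2 change of -1.89 (SE 0.52) had an adjusted p of 0.0329 by edgeR, and the 2 days overlap. It was not called with sequencing lane as a term (adjusted p 0.0856), or without any 1 of day 9 wells 1, 2 and 3 or day 11 wells 2, 5, 6 and 7 (adjusted p 0.0517 to 0.125). Lower calls took in 2 of the 5 genes, against 1.24% of all genes called lower and 1.63% in either direction.

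The other 3 genes split by well at day 11. TBX20 read 102.1 and 68.4 CPM in wells 1 and 2 and 183.3, 224.1 and 206.4 CPM in wells 5, 6 and 7. TBX2 read 22.8 and 19.1 against 55.3, 54.5 and 61.4 CPM in the same wells, and TBX5 62.4 and 37.3 against 80.9, 102.1 and 81.2 CPM. For each gene the 2 wells rich in endoderm markers and poor in cardiomyocyte markers are the lowest; for TBX3 they are not. Wells 1 and 2 also had the lowest RNA integrity scores of the group, 8.6 and 8.0 against 9.2 to 9.5, and its smallest totals, 18014203 and 19060126 counts. What part the mix of cells, RNA quality or depth has in this was not tested. Without those wells, a choice made after seeing the data, TBX20 had a log2 change from day 9 of 0.63 (SE 0.23) and an adjusted p of 0.0877 by edgeR, TBX5 one of 0.83 (SE 0.38, adjusted p 0.196) and TBX2 one of 0.26 (SE 0.32, adjusted p 0.708). With all 5 wells the values were 0.25 for TBX20, 0.56 for TBX5 and -0.16 for TBX2, with adjusted p values of 0.655, 0.42 and 0.852. None of the 3 genes was called in either form, and the direction for TBX2 depends on these wells.

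The steps to day 14 and day 20 gave no call. By edgeR 0 of the 5 genes passed at day 14 against day 11, where 0.697% of all genes did, and 0 at day 20 against day 14, where 0.0479% did. No member had an unadjusted p under 0.05 in either step, and DESeq2 called 0 in both. Without day 11 wells 1 and 2 the first of these steps still called 0, although TBX2 (log2 change -0.998, adjusted p 0.0508, edgeR) and TBX20 (-0.65, adjusted p 0.072) then had an unadjusted p under 0.05. TBX3 fell a second time at day 30. Its wells read 31.6, 56.9 and 48.8 CPM at day 20 and 9.82, 11.4 and 21.7 CPM at day 30, without overlap. The log2 change was -1.67 (SE 0.31, adjusted p 0.00145, edgeR). Summed endoderm and liver markers dropped in the same step without overlap, from 928 to 3904 CPM at day 20 to 21.1 to 273.6 CPM at day 30, and their part in the fall was not tested. TBX2 moved the same way without a call. It read 35.7, 27.8 and 31.2 CPM at day 20 and 11.7, 13.5 and 13.1 CPM at day 30, also without overlap, with a log2 change of -1.31 (SE 0.42) and an adjusted p of 0.0868. DESeq2 did call TBX2 here, with a log2 change of -1.27 (adjusted p 0.0471). So 1 of the 5 genes was called lower, against 1.26% of all genes called lower and 2.02% in either direction. In a fit of only the 6 libraries of these days TBX3 had an adjusted p of 0.332.

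At day 90 the wells again differed from each other. TBX20 read 198.5, 398.6 and 315.9 CPM and TBX3 28.4, 8.35 and 24.8 CPM in wells 2, 4 and 5. The well with the most TBX20 had the least TBX3 and, at 3.34 against 17.3 and 12.9 CPM, the least TBX2. Against day 30, 0 of the 5 genes were called by edgeR, where 5.09% of all genes were, and none had an unadjusted p under 0.05. DESeq2 called 0 as well.

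Day 90 against day 9 shows what the long culture left of the T-box set. TBX3 fell by 2.48 on the log2 scale (SE 0.30, adjusted p 1.84e-08), TBX2 by 2.08 (SE 0.40, adjusted p 7.34e-05) and TBX1 by 4.13 (SE 0.78, adjusted p 4.5e-05), all by edgeR. At day 90 they held 17.9%, 16.4% and 3.02% of their highest group mean. The TBX1 values rest on few reads: it gave 7, 0 and 3 counts at day 90, with 2 of the 3 libraries at or under 3 counts. Its ratio of day 9 to day 90 from summed counts was 17.1, with an exact 95% counting interval of 9.22 to 35.98. Summed endoderm and liver markers were also lower without overlap, from 557 to 6147 CPM at day 9 to 9.05 to 129.6 CPM at day 90, and their part in the 3 falls was not tested. TBX20 was 304.3 ± 101 CPM (SD, n = 3) against 132.2 ± 22.3 CPM (SD, n = 5) at day 9, and in CPM every day 90 well was above every day 9 well. Its log2 change of 1.20 (SE 0.27) had an adjusted p of 0.00055 by edgeR. In TPM the wells of the 2 days overlapped, at 38.3 to 94.9 on day 90 and 22.8 to 64.8 on day 9. The highest group mean of TBX20 in TPM was 77.8 at day 30, against 62.8 at day 90. Without day 90 well 4, the richest in TBX20, the change was 0.97, just under the limit of 1, with an adjusted p of 0.0105. TBX5 was 40.2 ± 6.20 CPM (SD, n = 3) against 49.4 ± 15.4 CPM (SD, n = 5). That log2 difference of -0.30 (SE 0.40) had an adjusted p of 0.595. Of the 5 genes 3 were called lower and 1 higher, where 12% of all genes were called lower, 11.9% higher and 23.9% in either direction.

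In CPM TBX5 was not called in any comparison that began at day 5 or later. Its TPM was less even, with means of 18.3 at day 20 and 5.61 at day 90. The day 90 wells, at 5.16 to 6.05 TPM, lay below every well of days 9 to 30, of which the lowest was 6.24 at day 9. In CPM the TBX5 group means from day 5 to day 90 lay between 40.2 and 72.8, with the highest at day 11 (72.8 ± 24.3 CPM, SD, n = 5). Each mean's wells overlap those of the next in rank. TBX20 had its group means in the order day 5, day 7, day 14, day 9, day 11, day 20, day 30 and day 90, from 63.5 to 304.3 CPM. Neighbours in that order overlap as well, while days 3 and 5 do not.

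Within a library the share of the 5 genes' summed TPM fell for TBX3 and rose for TBX20. From its 67.8% of day 3, TBX3 came to 24.2 ± 5.07% at day 5 (SD, n = 5). Its own mean was 14.1 TPM at day 3 and 13.3 TPM at day 5. Over that step the mean share of TBX2 went from 3.08% to 16.2% and that of TBX5 from 1.32% to 17.7%. TBX3 then held 8.54 ± 4.26% on day 11 (SD, n = 5) and 2.78 ± 1.83% on day 90 (SD, n = 3). TBX20 made up 23.2 ± 3.43% of the sum on day 3 (SD, n = 3), 53.6 ± 1.33% on day 9 (SD, n = 5) and 87.1 ± 5.68% on day 90 (SD, n = 3). The ratio of TBX20 to TBX3 in TPM, taken within each library, had a median of 0.365 at day 3. It was 1.67 on day 5, 2.59 on day 9, 8.52 on day 11 and 30.2 on day 90. The day 90 ratios, 17.9 to 104.3, lie wholly above those of day 9, 1.97 to 4.18. TBX20 was also at a higher multiple of TBX5, its partner at chamber genes, at day 90 than at day 5, with medians of 9.84 and 2.25. The course between was not steady, with 3.65 at day 9 and 2.98 at day 11. At day 3, when TBX5 had a mean of 0.27 TPM, the median was 16.5. These shares are ratios within a library and do not depend on scaling between libraries.

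**Figure D3:**
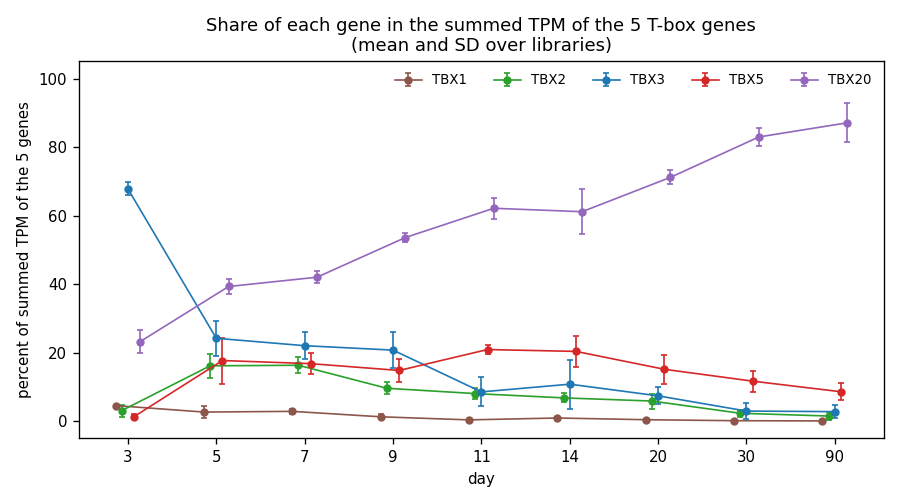
Mean share (with SD over libraries) of each gene in the summed TPM of the 5 genes, in percent, by day from day 3 to day 90. TBX3 drops from 67.8% at day 3 to 2.78% at day 90, while TBX20 climbs from 23.2% to 87.1% and TBX5 stays between 8.58% and 20.9% from day 5 on.

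The 2 antisense genes over TBX5 and TBX2 moved much as their partners did. TBX5-AS1 rose at day 5 by a log2 change of 4.39 (adjusted p 1.73e-06, edgeR) and TBX2-AS1 by 3.61 (adjusted p 4.11e-05, edgeR). Median counts of TBX5 over TBX5-AS1 were 11.5 at day 5 and 3.09 at day 90, and from day 9 to day 90 the antisense gene rose by a log2 change of 1.08 (adjusted p 0.0429, edgeR) while TBX5 gave no call. TBX2-AS1 fell over that span by 2.18 on the log2 scale (adjusted p 0.00156, edgeR). Over the 32 libraries from day 5 on, log2 CPM of TBX5 and TBX5-AS1 had a Pearson r of 0.726, and 0.837 on deviations from the group means. For TBX2 and TBX2-AS1 the values were 0.783 and 0.691. Each pair shares libraries, depth and, in part, the same stretch of genome, and without strand reads of 1 could have been given to the other. TBX1 and its neighbour GNB1L gave 0.483 and -0.175, and GNB1L was 7.65 ± 1.01 CPM in pluripotent cells (SD, n = 3), where TBX1 had 0 or 1 counts.

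**Figure D4:**
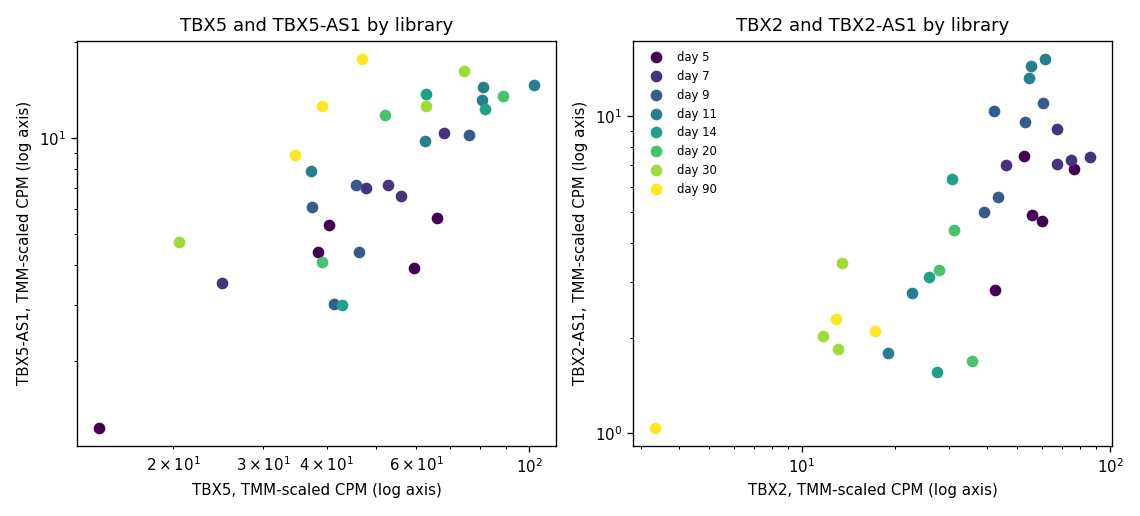
CPM of TBX5 against TBX5-AS1 (left) and of TBX2 against TBX2-AS1 (right), both axes logarithmic, 1 point for each of the 32 libraries from day 5 to day 90, coloured by day. In both panels high libraries of one gene tend to be high for the other, and day 90 libraries lie high in TBX5-AS1 for their TBX5.

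Among the members themselves, correlations over the same 32 libraries described how wells varied. TBX2 and TBX3 gave 0.830 in all and 0.362 on deviations from the group means. TBX5 and TBX20 gave 0.405 in all but 0.713 within groups, so wells of 1 day that were high in one tended to be high in the other. TBX3 and TBX20 gave -0.699 and -0.328. These points share depth and day, and the values are descriptions.

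The factors that bind with T-box proteins or act before them were read from a list of 9 genes. Of these 8 were higher at day 9 than at day 0 and 1 lower, where 17.1% of all genes were called higher and 31.7% in either direction. The median log2 change was 7.06, against 0.08 over all genes tested. GATA4 and GATA6, zinc-finger factors of cardiac mesoderm, were called higher already at day 1, with log2 changes of 4.43 (adjusted p 4.56e-11) and 3.68 (adjusted p 4.04e-09) by edgeR, in the step in which TBX3 was called. GATA5 was called lower there, at -1.24 (adjusted p 0.0382, edgeR), where 13.5% of all genes were called in either direction. At day 3, 6 of the 9 were called higher, against 11% of all genes, in the step in which all 5 members were called. HAND1, a factor of the early heart tube and lateral mesoderm, rose by 7.79 (adjusted p 2.03e-11, edgeR) and ISL1, the second heart field factor, by 4.74 (adjusted p 6.95e-09, edgeR). At day 5, 5 were higher and 1 lower, against 10.1% of all genes in either direction. MEF2C rose there by 5.64 (adjusted p 2.34e-11, edgeR), in the step in which TBX5, TBX2 and TBX20 were called. NKX2-5, the homeodomain partner of TBX5, was 8.88 CPM at day 5, 5.28% of its highest group mean, when TBX5 stood at 60.1% of its own. SALL4, a pluripotency factor that can bind TBX5, was the gene that fell from day 0 to day 9, by 1.82 on the log2 scale (adjusted p 5.85e-08, edgeR). It was also the 1 called lower at day 5 against day 3, with a log2 change of -1.05 (adjusted p 0.00149, edgeR).

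**Figure D5:**
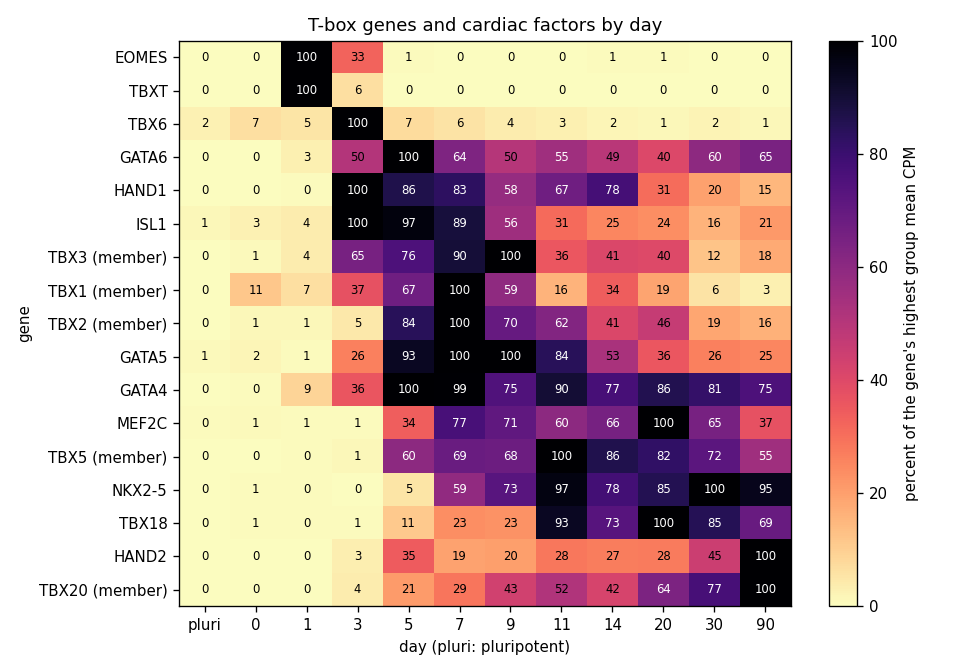
Group mean CPM of the 5 members, 4 other T-box genes and 8 cardiac factors, each as a percent of its own highest group mean, by group. EOMES and TBXT have their highest mean first (day 1), then TBX6, HAND1 and ISL1 (day 3), TBX3 (day 9), TBX5 (day 11) and last TBX20 and HAND2 (day 90). For TBX3, TBX5 and TBX20 the wells of the highest group overlap those of the group next in rank.

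Of 12 other T-box genes 11 were tested. At day 1 against day 0, 4 of the 11 rose, where 3.86% of all genes did, among them TBXT and EOMES, the factors of the primitive streak, with log2 changes of 9.87 (adjusted p 2.5e-12) and 9.64 (adjusted p 4.07e-12) by edgeR. TBX6, of paraxial mesoderm, was 33.2 ± 11.7 CPM at day 3 (SD, n = 3) and fell by 3.76 on the log2 scale to day 5 (adjusted p 4.32e-09, edgeR). In that step 5 of the 11 fell and 1 rose, where 10.1% of all genes were called in either direction, with a median log2 change of -2.37 against -0.02 over all genes. The 1 was TBX18, a factor of the sinus horn and epicardium, with a log2 change of 4.09 (adjusted p 0.000137, edgeR). TBX18 rose again from 13.2 ± 8.35 to 53.6 ± 14.6 CPM at day 11 (SD, n = 5 each), a log2 change of 2.02 (adjusted p 0.0121, edgeR), in the step in which TBX3 fell. At day 9 against day 0 the count over the 11 was 3 higher and 1 lower, where 17.1% of all genes were called higher and 31.7% in either direction.

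Chamber genes known to respond to TBX5 or TBX20 were called higher from day 3 on, in different steps. Of 12 such genes 2 were higher and 1 lower at day 3 against day 1, where 17.8% of all genes were called in either direction. At day 5 against day 3 the count was 3 higher and 4 lower, where 10.1% were called. The 3 were NPPB, RYR2 and PLN, the regulator of the calcium pump, which rose by 2.60 (adjusted p 6.51e-05, edgeR). At day 7 against day 5, 6 were higher and 1 lower, where 3.65% of all genes were called in either direction. The median log2 change in that step was 1.55 against -0.01 over all genes. SMPX, a small muscle protein, rose by 4.78 (adjusted p 8.31e-13, edgeR) and PLN by a further 3.52 (adjusted p 3.78e-09, edgeR). NPPA, the atrial natriuretic peptide, went from 2.27 ± 1.35 CPM on day 5 to 64.5 ± 30.2 CPM on day 7 and 627.5 ± 470.3 CPM on day 9 (SD, n = 5 each). At day 9 against day 0 the count was 9 higher, against 17.1% of all genes, and 1 lower, and the 1 was GJA1, the main ventricular gap junction gene, at -2.98 (adjusted p 6.68e-12, edgeR). At day 90 against day 9 it was 7 higher and 1 lower, against 11.9% and 12% of all genes, with a median of 1.42 against -0.02. PLN rose by a further 4.41 (adjusted p 1.32e-11, edgeR), and BMP10, a trabecular growth factor, fell by 4.18 on the log2 scale (adjusted p 5.34e-07, edgeR).

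Nodal and conduction genes, the setting in which TBX3 is best known, did not share 1 course. Of 10, 6 were higher and 1 lower at day 9 against day 0, where 17.1% of all genes were higher and 31.7% called in either direction, with a median of 2.49 against 0.08 over all genes. At day 90 against day 9 the count was 3 higher and 4 lower, against 11.9% and 12% of all genes, with a median of 0.30 against -0.02. BMP2, a ligand that induces TBX2 and TBX3 in the atrioventricular canal, was among those that fell, by 2.65 on the log2 scale (adjusted p 6.88e-06, edgeR). SHOX2, a sinus node factor that overlaps in role with TBX3, rose by 5.99 (adjusted p 4.93e-06, edgeR), to 16.4 ± 14.0 CPM (SD, n = 3). HCN4, the pacemaker channel, was 73.8 ± 11.4 CPM at day 9 (SD, n = 5), 259.2 ± 171.3 CPM on day 20 and 123.6 ± 62.9 CPM on day 90 (SD, n = 3 each).

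Second heart field and pharyngeal genes, the setting of TBX1, were called higher for 8 of 11 at day 3 against day 1, where 11% of all genes were, with 2 lower and a median of 3.98 against 0.07 over all genes. At day 9 against day 0, 8 of 11 were higher, where 17.1% of all genes were, with a median of 3.99 against 0.08. Other steps were mixed. At day 5 against day 3, 3 were higher and 4 lower, where 10.1% of all genes were called, with a median of -1.48 against -0.02. At day 90 against day 9 it was 2 higher and 3 lower, against 11.9% and 12% of all genes, with a median of -0.71 against -0.02. FGF8, a growth factor that TBX1 is known to switch on, was high on 2 occasions. It first reached 24.6 ± 4.25 CPM at day 1 (SD, n = 3), when TBX1 stood at 0.350 CPM, and then fell at day 3 and again at day 5. It was 1.03 ± 0.497 CPM at day 5 and 22.96 ± 8.97 CPM at day 7 (SD, n = 5 each), a log2 change of 4.47 (adjusted p 2.31e-08, edgeR). FGF8 was the only 1 of the 11 called higher at day 7 against day 5, and 2 were lower. In that step 3.65% of all genes were called in either direction, and the list's median was -0.07 against -0.01. TBX1 had its highest mean at day 7 but not at day 1. From day 9 to day 90 FGF8 fell by 7.86 on the log2 scale (adjusted p 1.08e-08, edgeR). The 4 markers of pharyngeal endoderm, another site of TBX1 (PAX1, PAX9, FOXE1 and NKX2-1), summed to at most 7.93 CPM in any library.

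The 3 genes whose course over the 12 group means was most like each member were taken by Pearson correlation of log2(CPM + 0.5), among 12084 or 12085 genes reaching 10 CPM in some group. For TBX20 they were PKP2, a desmosomal plaque protein of heart muscle (r = 0.994), SMARCD3, the cardiac subunit of the BAF remodelling complex (0.992), and RIN2 (0.992). For TBX5 they were ZFPM2, the cofactor of GATA4 (0.991), MEF2C (0.987) and STX12 (0.982). TBX2 was closest to MAB21L2 (0.990), PPT2 (0.982) and RELN (0.981), and TBX3 to COL4A6, a basement membrane collagen (0.987), PSD4 (0.978) and CDC42EP1 (0.975). TBX1 came closest to MED12 (0.957), TIAL1 (0.948) and RNF152 (0.944), at lower values than the others. Among the members TBX5 and TBX20 were the most alike (0.961) and TBX1 and TBX20 the least (0.330). With 12 groups that share a time axis many genes reach such values, so the names describe shape only.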

How the data were processed

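The 5 genes, the gene lists and the rule for genes of similar course were chosen with earlier results of these data known. Per the labels' protocols, column-isolated total RNA was made into stranded libraries and read as paired ends, several libraries to a lane. The submitters' processing notes list cutadapt, STAR 2.5.2b, RSEM 1.2.31 and hg38. The authors deposited estimated counts per gene, of which 93.8% were whole numbers, TPM values scaled for transcript length, and a table with each library's RNA integrity score and sequencing lane (5 lanes, 1 batch).

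Counts were rounded, filtered with filterByExpr (22955 genes left) and TMM-scaled, and edgeR 4.0.16 in R 4.3.3 fitted the 44 libraries together, with a mean for each group, from which the 13 comparisons were drawn. Because TPM sums to the same total in every library, and small RNAs take part of it, TPM was used only for ratios within a library and as an alternative. Alternatives were RLE scaling, other filters, DESeq2 1.42.0, limma 3.58.1 on log2(TPM + 1), fits of the compared groups alone, a replicate block, a lane term and omission of single libraries. The steps were tested on simulated data. No library was dropped and no value imputed in the values reported first. Libraries carry no molecular identifiers, so floors cover counting error only. Named besides the 5 genes are members of lists of other T-box genes, partner factors, chamber, nodal and second heart field genes, and the 3 genes most like each member. Same-numbered wells were compared on their deviations from group means. In no comparison with 3 or more pairs did every pair correlate above 0.1, so the numbers were not taken to pair wells. Day 9 against day 7 came close to that rule, at 0.0901 to 0.623. There every well but number 3 correlated best with the well of its own number, so a pairing on these days is not excluded. Comparisons with 2 pairs were outside that rule. Among them day 20 against day 14 gave 0.563 and 0.525, each well best with its own number. A pairing on those days is not excluded either, while day 30 against day 20 gave 0.0387 and -0.175.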

Additional observations from a re-analysis of the deposited data

Results flagged for a closer look

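In 20 checks of a gene in a group of 5 libraries, 1 value lay far from the others, about what chance gives, since it flags about 1 group in 20. TBX5 in day 9 well 1 was 76.17 CPM, while the other 4 wells lay between 37.51 and 46.33 CPM. The gap to the nearest well took up 0.772 of the whole range, above the limit of 0.71 for 5 samples. The same well also held the highest TBX20 of day 9, 162.9 CPM.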

How the results depend on the processing

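No direction of a called change reversed under any alternative run. Several counts of genes called were smaller by limma on log2(TPM + 1). Each set against the group just before, day 0 and day 11 had 0 in place of 2. Day 1 and day 30 had 0 in place of 1, and day 3 had 2 in place of 5. From day 0 to day 9 it called 4 in place of 5, without TBX1. From day 9 to day 90 it called 2 in place of 4. The constant of 1 TPM shrinks changes of low genes. TBX3 was not low at days 9 and 11, with means of 16.6 and 5.67 TPM. Its call was lost as well, at a log2 change of -1.21 (adjusted p 0.263, limma). In TPM its wells overlapped, at 6.91 to 32.97 on day 9 and 2.99 to 8.79 on day 11. The overlap lay in day 11 wells 1 and 2, at 8.79 and 7.82 TPM. Wells 5, 6 and 7 held 4.48, 4.27 and 2.99 TPM. The cause of the lost calls was not tested. For day 11 against day 9 the count was 1, without TBX1, with a replicate block (adjusted p 0.111) and with the lane term. For day 0 against pluripotent it was 3, TBX3 added, by DESeq2 and in a fit of the compared groups. For day 30 against day 20 it was 2 by DESeq2 and 0 in a fit of the compared groups. Leaving out 1 library at a time gave 1 to 2 called genes for day 0 against pluripotent and 1 to 2 for day 11 against day 9. With the replicate block TBX20 changed by 0.96 at day 90 against day 9 (adjusted p 0.012), under the limit of 1. The block changed no other call. Same-numbered wells correlated with each other at 0.0901 to 0.623 in day 9 against day 7. In day 20 against day 14, with 2 pairs, they correlated at 0.563 and 0.525. In all, 321 log2 changes of called genes under an alternative stayed called and 35 did not.

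Over all genes the background moved more. For day 14 against day 11, 160 genes were called in the fit reported, 417 by DESeq2, 12 with the lane term, 0 with the replicate block and 2371 without day 11 wells 1 and 2. For day 90 against day 30 it was 1168 against 2076 by limma on TPM, of which 2.79% were higher in place of 52.1%. For day 9 against day 0 and day 90 against day 9, 33.1% and 17.1% of calls were higher on TPM, in place of 54.1% and 49.9%. The 3 genes most like each member depended on the measure: Spearman correlation kept 1 for TBX1 and 0 for TBX2, TBX5 and TBX20, counting MAB21L2, 1 of 5 genes tied for the third place with TBX2, as not kept, and TPM kept 1 for each of these 4. Small libraries at days 14 and 20 limit what TBX1, at a few counts, can show.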

Other observations

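From well to well TBX20 and TBX5 were high with the summed level of cardiomyocyte genes in some groups and low in others. At day 14, well 6 had the highest sum of the 6 cardiomyocyte markers (30410 CPM, against 16500 and 17890) and the lowest TBX20 (88.1 CPM, against 135.9 and 160.5) and TBX5 (42.9 CPM, against 82.0 and 62.7). Day 20 well 3 showed the same arrangement, with a marker sum of 33240 CPM against 17430 and 19770, TBX20 at 157.6 against 171.4 and 252.6 CPM, and TBX5 at 39.2 against 52.1 and 88.6 CPM. Day 30 well 1 was instead the highest of its group in all 3, with a marker sum of 37020 CPM, TBX20 at 336.5 CPM and TBX5 at 74.5 CPM. At day 90 well 4 had the highest marker sum, 52090 CPM, and the highest TBX20, 398.6 CPM, but the lowest TBX5, 34.6 CPM against 39.1 and 46.8 CPM. TBX5-AS1 was lowest in the same day 14 and day 20 wells, at 3.00 and 4.09 CPM, where the others held 11.8 to 13.8 CPM. TBX3 in day 14 well 6 was 69.6 CPM, above the other wells of that day at 36.4 and 34.1 CPM. With 3 wells a group these values were not tested.

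Day 90 well 2, with the most TBX3 (28.4 CPM) and TBX2 (17.3 CPM) of its group, also had the highest sums of epicardial markers (221.8 CPM, against 52.7 and 46.7) and fibroblast markers (12840 CPM, against 2204 and 6585). Whether the 2 go together was not tested.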
